A study of Mus musculus with 12 samples.

Results

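Withaferin A and celastrol were compared directly with each other in the hypothalamus of obese mice, by setting the 4 arrays of withaferin A against the 4 arrays of celastrol. The series held 12 arrays in all, and the other 4, from mice given DMSO, served to show which of the compounds lay away from the vehicle. Genes were included where the array annotation gave a probe set exactly 1 symbol and where the mean log2 signal over the 12 arrays reached the 25th percentile, a value of 5.81. This left 14953 of 19938 genes, and 4985 genes were set aside as dim. Just below that limit lay Mpzl2, with celastrol and withaferin A means of 5.96 and 5.69, and just above it A430093F15Rik, with 5.83 and 5.87.

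All mice were male C57BL/6J animals aged 23 weeks, made obese by a 45% high fat diet that began at 3 weeks of age and lasted 20 weeks. Intraperitoneal injections of DMSO came first in every group, for 4 days. For the next 4 days the daily injection held DMSO again in the control group, celastrol (100 µg/kg) in the second group and withaferin A (2 mg/kg) in the last. Each group had 4 biological replicates. Because the doses differed, the compound and the dose cannot be told apart in any difference given here. Food intake, body weight and lean mice were not analysed here.

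Celastrol is a triterpenoid quinone methide from the thunder god vine, and withaferin A is a steroidal lactone from the plant ashwagandha. Both are known to bind proteins through reactive cysteines and, in obese mice, to lower food intake and body weight in a way that depends on leptin. Leptin is the hormone of fat tissue that acts on neurons of the hypothalamus through its receptor and the transcription factor STAT3. The hypothalamus also senses glucocorticoids, cytokines, glucose and fatty acids, so genes of these pathways were described beside those that differed most. Every value below is a log2 signal, or a difference between group means of log2 signals written as withaferin A minus celastrol, with its standard error (SE) and n = 4 arrays per group.

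The tissue label was borne out by its markers. The neuropeptide genes Oxt, Avp, Hcrt and Pmch had mean signals between percentiles 95.9 and 99.2 of all genes, and Pomc, Nkx2-1, Otp and Sim1 between 65.0 and 75.5. Array medians lay between 6.89 and 6.98, correlations between arrays between 0.981 and 0.994, and 0 pairs of arrays were identical. The SD of all signals on an array was 2.19 to 2.22 with withaferin A, 2.21 to 2.25 with celastrol and 2.23 to 2.28 with DMSO. Celastrol replicate 2 carried more pituitary RNA than any other array, with a growth hormone (Gh) signal of 10.96 against 6.30 to 7.98 elsewhere and a prolactin (Prl) signal of 9.80 against at most 6.08. Withaferin A replicate 1 stood apart from its group in glucocorticoid-responsive genes, where it lay at the level of the celastrol arrays, as given below. DMSO replicate 1 stood apart in acute phase genes. For part of the results, values without celastrol replicate 2 or withaferin A replicate 1 are given as well. The acute phase levels are not given without DMSO replicate 1. In whole tissue, fewer cells of a type and less RNA per cell cannot be told apart.

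Between the compounds, 7 of 14953 genes (0.0468%) passed an adjusted p of 0.05 in the limma test. With withaferin A, 6 were lower than with celastrol (0.0401%) and 1 was higher (0.00669%). The 6 lower genes were Txnip, Srarp, Ppil6, Zfp36, Podxl and Ch25h, and the higher one was Ide. In each of the 6, DMSO lay nearer withaferin A, and in Ide DMSO lay nearer celastrol. At an unadjusted p under 0.05, 1116 genes were lower (7.46%) and 1297 higher (8.67%), and at an adjusted p under 0.10, 44 were lower and 33 higher. All 4 withaferin A arrays lay below all 4 celastrol arrays in 800 genes (5.35%) and above them in 586 genes (3.92%). The median difference over all tested genes was 0.01. Large differences were mostly on the lower side: 57 genes were lower and 9 higher by at least 0.5, and 7 were lower and 0 higher by at least 1. By at least 0.25, in contrast, 423 were lower and 552 higher.

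The number of genes that passed rested on single arrays. It was 56 without withaferin A replicate 1, with all 7 genes among them, and 15 without celastrol replicate 4, with 6 of the 7. It was 1 without celastrol replicate 2, namely Gem (0.47 ± 0.06, adjusted p = 0.0295), and 1 without withaferin A replicate 2, namely Ppil6 (−0.62 ± 0.07, adjusted p = 0.00828). It was 0 without celastrol replicate 3, where 1091 genes were lower and 1157 higher at an unadjusted p under 0.05. It was also 0 without withaferin A replicate 4, where 782 were lower and 936 higher. The 7 genes kept their direction in all these fits, and each had an adjusted p of 0.0862 without celastrol replicate 2. In a fit to the 8 arrays alone, and in a fit that held the levels of pituitary and thalamus markers as covariates, 0 genes passed.

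**Figure D1:**
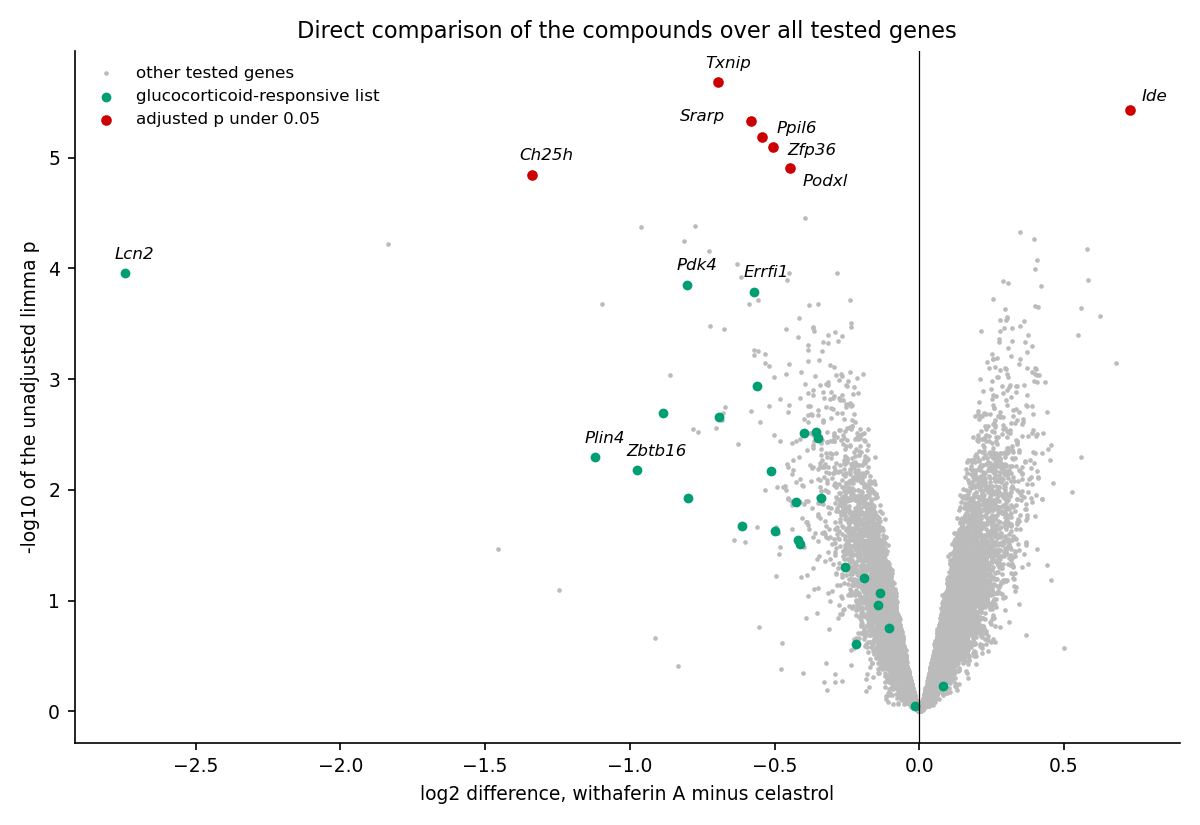
Each point is 1 of the 14953 tested genes, placed by its log2 difference of withaferin A minus celastrol (horizontal axis) and by −log10 of its unadjusted limma p (vertical axis). The 7 genes past an adjusted p of 0.05 are red, 6 on the left and Ide on the right, and the 27 tested members of the glucocorticoid-responsive list are green, 26 of them left of 0.

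For each gene, DMSO was called nearer one compound where its mean lay less than 0.5 times as far from that compound's mean as from the other's. Over all tested genes, DMSO lay nearer celastrol in 34.1% and nearer withaferin A in 23.5%, lay between the compounds with no clear side in 13%, and lay outside both in 29.4%. Among the 44 genes lower at an adjusted p under 0.10, DMSO lay nearer withaferin A in 24, nearer celastrol in 11 and between them in 9. Among the 33 higher genes the counts were 14, 9 and 10. At an unadjusted p under 0.05 the order was the other way. Of the 1116 lower genes, DMSO lay nearer celastrol in 572 (51.3%) and nearer withaferin A in 290 (26%). Of the 1297 higher genes, it lay nearer celastrol in 552 (42.6%) and nearer withaferin A in 382 (29.5%). In the same fit, 115 genes passed for celastrol against DMSO, where 212 had an adjusted p under 0.10 and 1561 an unadjusted p under 0.05. For withaferin A against DMSO 0 passed, 8 had an adjusted p under 0.10 and 2352 an unadjusted p under 0.05. These comparisons share their DMSO arrays with each other and an arm with the direct one, so they describe where a gene lies and add no independent evidence.

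Txnip (probe set 10494428) had the smallest p. It codes for thioredoxin-interacting protein, an arrestin-type protein that binds thioredoxin, curbs glucose uptake and is induced by glucose. Its signal was 9.42, 9.50, 9.42 and 9.45 with celastrol, 8.81, 8.76, 8.91 and 8.53 with withaferin A, and 8.48, 8.52, 8.82 and 8.73 with DMSO. The celastrol arrays lay close together above all others, and the withaferin A and DMSO arrays overlapped. The difference was −0.70 ± 0.09, or 1.62-fold lower with withaferin A (adjusted p = 0.0231). Of its relatives, Arrdc3, an arrestin-domain regulator of adrenergic receptors, had −0.28 ± 0.07 and did not pass (adjusted p = 0.141), and Arrdc2 had −0.26 ± 0.12 (0.309). Arrdc4, another glucose-responsive member, had −0.05 ± 0.06 and Arrdc1 0.07 ± 0.07.

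The promoter of Txnip is shown because the gene is a textbook target of a carbohydrate response element, and it was chosen after its values were seen. The sequence is from RefSeq on the build GRCm38.p6, chr3:96557707-96558006 on the plus strand, from 250 bases before the gene's start to 50 after it. Capitals mark a match to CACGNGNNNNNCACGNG, which begins 85 bases before the start.
Txnip: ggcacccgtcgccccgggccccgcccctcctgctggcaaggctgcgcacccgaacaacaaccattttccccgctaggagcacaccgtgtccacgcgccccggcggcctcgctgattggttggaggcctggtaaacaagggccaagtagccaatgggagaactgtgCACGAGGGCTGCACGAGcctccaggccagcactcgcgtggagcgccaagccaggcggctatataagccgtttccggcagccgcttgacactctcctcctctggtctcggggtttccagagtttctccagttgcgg
Searched on both strands (CNCGTGNNNNNCNCGTG on the other), this pattern was in 16 of 32851 promoter windows of the same length (0.0487%) and in 9 of 15021 windows of tested genes (0.0599%). Windows were at hand for 6 of the 7 genes that passed, and only that of Txnip held it. A match is a description of these letters and not of binding or of glucose in these mice, which was not measured here.

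Ch25h (probe set 10467136) showed the largest difference among the 7. It codes for cholesterol 25-hydroxylase, which makes the immune oxysterol 25-hydroxycholesterol and is induced by interferons and cytokines. Its signal was 7.11, 7.68, 7.20 and 6.88 with celastrol, 6.39, 5.47, 5.72 and 5.93 with withaferin A, and 5.57, 5.67, 6.22 and 5.69 with DMSO. The DMSO values fell within the range of withaferin A, near the limit for dim genes, and all celastrol arrays lay above both groups. The difference was −1.34 ± 0.20, or 2.53-fold lower with withaferin A (adjusted p = 0.0306). Without withaferin A replicate 1, the highest of its group, it was −1.51 ± 0.19 (adjusted p = 0.00724), and without celastrol replicate 2 −1.19 ± 0.20 (0.0862).

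Srarp (probe set 10517945), which codes for a protein that binds and regulates steroid receptors, was 6.60, 6.65, 6.48 and 6.47 with celastrol. It was 6.13, 5.96, 5.83 and 5.97 with withaferin A and 6.13, 6.07, 6.01 and 5.81 with DMSO, so those groups overlapped and lay below celastrol. The difference was −0.58 ± 0.08 (adjusted p = 0.0231). Ppil6 (probe set 10362794), a member of the cyclophilin family of prolyl isomerases, was 7.89, 8.11, 8.03 and 8.07 with celastrol, 7.35, 7.70, 7.43 and 7.43 with withaferin A, and 7.64, 7.59, 7.47 and 7.57 with DMSO. Withaferin A replicate 2 was its highest withaferin A array and still below every celastrol array. The difference was −0.54 ± 0.08 (adjusted p = 0.0238), while its relatives Ppil1, Ppil2, Ppil3 and Ppil4 had differences between −0.12 and 0.00 with 0 of 4 passing.

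Zfp36 (probe set 10561453) codes for tristetraprolin, which binds AU-rich elements of cytokine transcripts and speeds their decay. Its signal was 6.70, 6.94, 6.82 and 6.92 with celastrol, 6.40, 6.31, 6.44 and 6.20 with withaferin A, and 6.45, 6.33, 6.27 and 6.44 with DMSO. The withaferin A and DMSO arrays overlapped and celastrol lay above both, with a difference of −0.51 ± 0.07 (adjusted p = 0.0238). The related genes Zfp36l1 and Zfp36l2 had −0.28 ± 0.10 (adjusted p = 0.213) and −0.05 ± 0.07 (0.759) and did not pass. Podxl (probe set 10543791), which codes for podocalyxin, a sialomucin of podocytes and vascular endothelium, was 9.27, 9.51, 9.30 and 9.38 with celastrol. It was 8.92, 8.95, 8.95 and 8.85 with withaferin A and 9.10, 8.87, 8.99 and 9.10 with DMSO. All DMSO and withaferin A arrays lay below celastrol, with a difference of −0.45 ± 0.07 (adjusted p = 0.0306). Its family members Cd34 and Podxl2 had −0.16 ± 0.09 (adjusted p = 0.426) and 0.00 ± 0.06 (0.980).

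**Figure D2:**
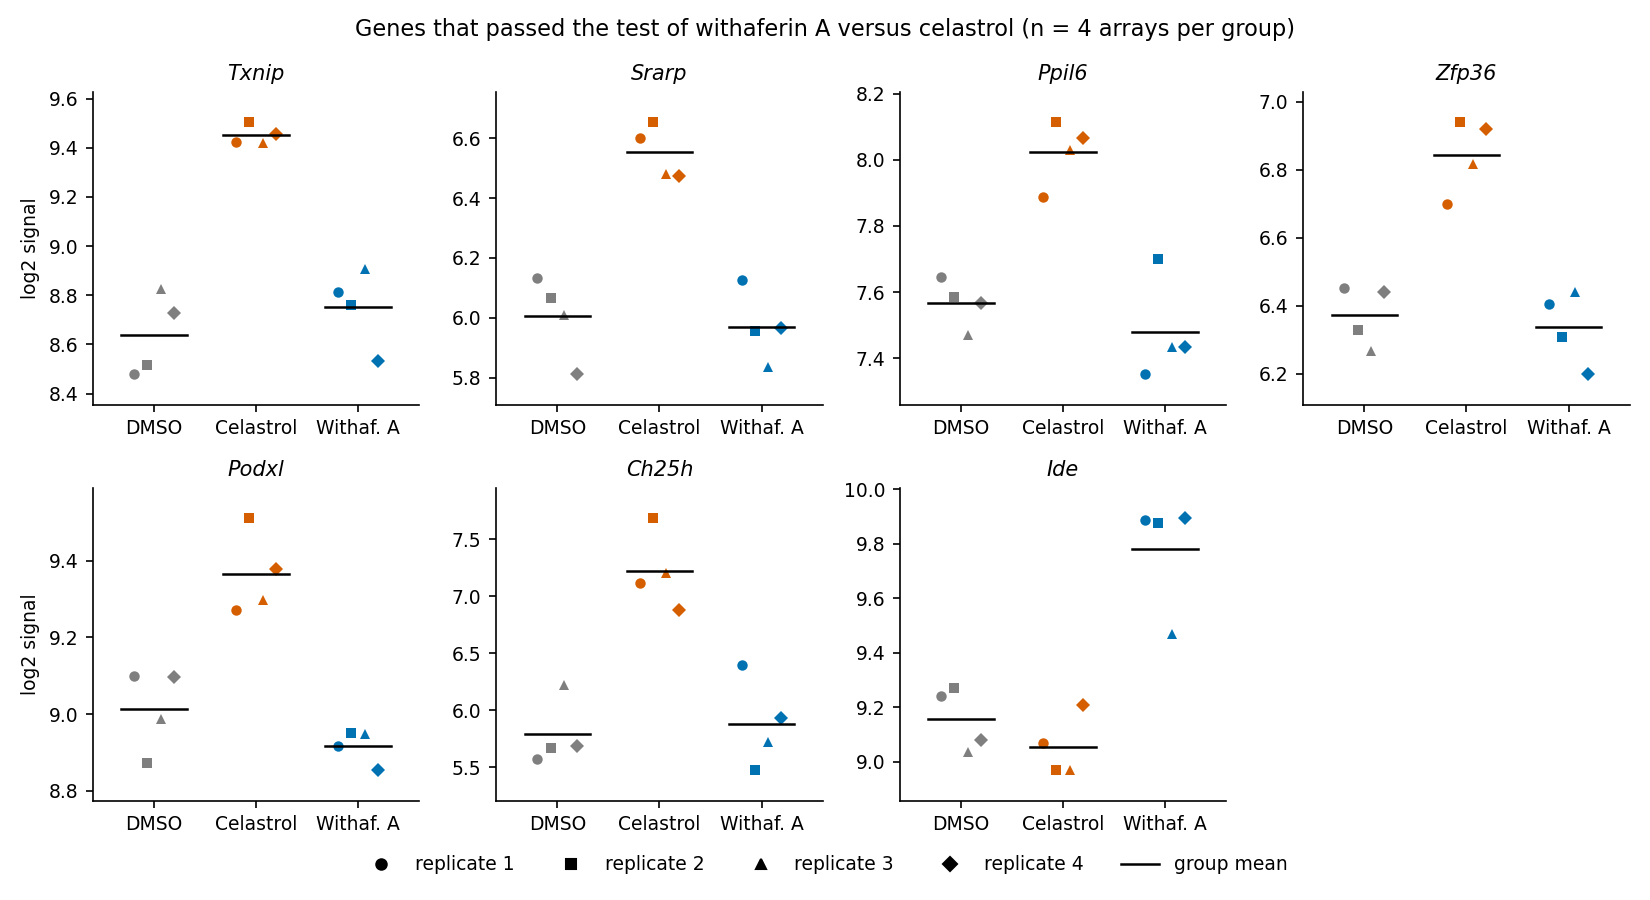
Log2 signal (vertical axes, which do not start at 0) of the 7 genes that passed, with 1 point per array, marker shapes for replicates 1 to 4 and a line at the group mean. In the first 6 panels the 4 celastrol arrays lie above all others, and in the Ide panel the 4 withaferin A arrays, from 9.47 to 9.89, lie above all others.

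Ide (probe set 10467230) was the only gene that passed with higher values after withaferin A. It codes for insulin-degrading enzyme, a metalloprotease that cleaves insulin, amylin and amyloid beta. Its signal was 9.88, 9.87, 9.47 and 9.89 with withaferin A, 9.07, 8.97, 8.97 and 9.21 with celastrol, and 9.24, 9.27, 9.04 and 9.08 with DMSO. Celastrol and DMSO overlapped, and every withaferin A array lay above both, replicate 3 by the least. The difference was 0.73 ± 0.10, or 1.65-fold (adjusted p = 0.0231). Against DMSO, withaferin A had an adjusted p of 0.0724.

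The neighbours of Ide on the chromosome were set beside it. A duplication that carries Ide and Fgfbp3 is known to segregate within the C57BL/6J strain, and copy number was not measured here. Fgfbp3, a carrier protein for fibroblast growth factors, was 6.49, 6.50, 6.37 and 6.74 with withaferin A, 6.13, 6.00, 6.36 and 5.99 with celastrol, and 6.20, 6.24, 6.41 and 6.37 with DMSO. Its withaferin A arrays lay above its celastrol arrays but overlapped DMSO, and replicate 3 was again the lowest of its group. The difference of 0.40 ± 0.09 did not pass over all genes (adjusted p = 0.113, unadjusted p = 0.000808). Btaf1, a TATA-binding protein regulator, had 0.20 ± 0.06 (adjusted p = 0.189), with 8.73, 8.57, 8.60 and 8.59 after withaferin A against 8.57, 8.32, 8.40 and 8.39. Between Btaf1 and Ide on the chromosome lay Cpeb3 and Marchf5, with −0.08 ± 0.05 (adjusted p = 0.485) and −0.10 ± 0.07 (0.514). Of the 10 nearest tested genes, 3 had a positive difference, while over all tested genes 45.1% had one below 0. An unadjusted p under 0.05 was found in 2 of the 10, and in 2413 of all 14953 tested genes. Of the 10, 0 passed. The part of copy number in the Ide values was not tested.

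**Figure D3:**
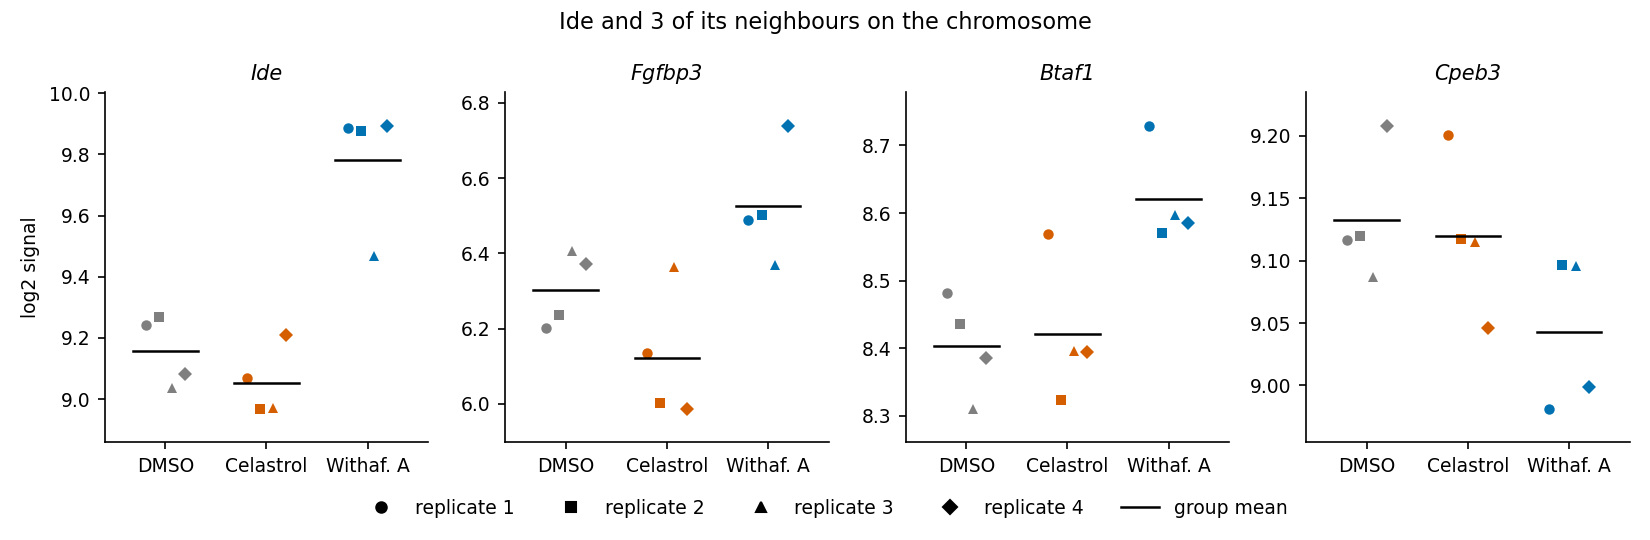
Log2 signal (vertical axes, which do not start at 0) of Ide and of its neighbours Fgfbp3, Btaf1 and Cpeb3, with 1 point per array and a line at the group mean. Withaferin A arrays lie above all celastrol arrays for Ide, Fgfbp3 and Btaf1, and overlap them for Cpeb3, which had a difference of −0.08 ± 0.05.

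The genes next in order of p did not pass. On the lower side these were Cenpc1, Fn1, Lrg1 and Mgp. Fn1, which codes for the matrix protein fibronectin, was 9.88, 10.29, 10.19 and 9.60 with celastrol, 9.36, 9.15, 9.37 and 8.97 with withaferin A, and 9.17 to 9.29 with DMSO, for a difference of −0.78 ± 0.13 (adjusted p = 0.0632). Mgp, the matrix Gla protein that restrains calcification of vessels, had 7.50, 8.20, 7.73 and 7.48 against 7.01, 7.12, 6.84 and 6.67, with DMSO between them, and a difference of −0.81 ± 0.14 (0.0642). Both genes had their highest value on celastrol replicate 2, and without it the differences were −0.68 ± 0.13 (0.123) and −0.66 ± 0.11 (0.0862). Without withaferin A replicate 1 they were −0.82 ± 0.14 (0.0313) and −0.85 ± 0.16 (0.0451). Cenpc1, a centromere protein, had −0.39 ± 0.07 (0.0632), with DMSO at 7.87 to 8.13 within or near the celastrol values of 7.96 to 8.17 and withaferin A at 7.61 to 7.72.

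On the higher side, Tysnd1, the protease that processes enzymes of the peroxisome, had 8.05, 8.02, 7.83 and 8.02 with withaferin A against 7.67, 7.61, 7.60 and 7.66 with celastrol. All withaferin A arrays also lay above DMSO, at 7.67 to 7.80, and the difference was 0.35 ± 0.06 (adjusted p = 0.0640). Plekho2 was 0.58 ± 0.10 (0.0647), with DMSO at 7.65 to 7.79, withaferin A at 7.30 to 7.80 and celastrol below both at 6.85 to 7.14. It was 0.68 ± 0.09 (0.00724) without withaferin A replicate 1 and 0.62 ± 0.11 (0.123) without celastrol replicate 2, and a dimmer probe set of Plekho2 gave 0.17 ± 0.09. Klf11, a repressor of the Krüppel-like family, had 0.29 ± 0.05 (0.0713), again with celastrol (7.85 to 7.93) below DMSO (8.08 to 8.27) and withaferin A (8.13 to 8.25). Gem, a small GTPase that dampens calcium channels, had 0.40 ± 0.07 (0.0642) with DMSO between the compounds. The other genes of smallest p on this side were Lrtm1, Col14a1, Iqcn, Wap and Prom1, with differences between 0.31 and 0.58 and adjusted p between 0.0713 and 0.0723.

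Glucocorticoid-responsive genes were lower with withaferin A than with celastrol in most members, though none passed. Glucocorticoids bind the glucocorticoid receptor, which enters the nucleus and raises genes such as Fkbp5, a co-chaperone that feeds back on the receptor, Sgk1, a kinase of salt and stress responses, and Zbtb16, a zinc finger repressor. Of 29 genes in the list, 27 were tested, and Cdkn1a and Il1r1 were not analysed here. In 26 the difference was below 0, against 45.1% of all tested genes. At an unadjusted p under 0.05 it was lower in 19, against 7.46% of all tested genes, and higher in 0, against 8.67%. In 8 the withaferin A arrays lay wholly below the celastrol arrays, against 5.35% of all genes. The median difference was −0.42, beside 0.01 over all genes. The list's median was 0.70 for celastrol minus DMSO and 0.31 for withaferin A minus DMSO. DMSO lay nearer withaferin A in 17 members, against 23.5% of all tested genes, and nearer celastrol in 0, against 34.1%.

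The withaferin A arrays did not behave alike in these genes. The mean of the list above the DMSO mean was 0.76, 0.88, 0.89 and 0.85 on the celastrol arrays and 0.76, −0.01, 0.46 and 0.03 on the withaferin A arrays, with DMSO between −0.08 and 0.07. Replicates 2 and 4 lay within the DMSO range, replicate 3 between the groups, and replicate 1 at the lowest celastrol array. Zbtb16 was 11.01, 9.28, 10.15 and 9.13 with withaferin A, 10.76, 10.70, 10.85 and 11.17 with celastrol and 8.93 to 9.23 with DMSO, for a difference of −0.98 ± 0.30 (adjusted p = 0.182). Fkbp5 showed the same order of arrays, with 9.03, 7.59, 8.18 and 7.67 against 8.61, 8.56, 8.83 and 8.92, DMSO at 7.39 to 7.65, and −0.61 ± 0.23 (0.238). In both genes, withaferin A replicate 1 lay inside or above the celastrol range.

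In other members the withaferin A arrays also lay apart from each other, with replicate 1 often nearest celastrol. Lcn2, a secreted lipocalin that binds siderophores and also belongs to the acute phase, was 9.63, 10.83, 10.50 and 9.59 with celastrol, 9.31, 7.07, 6.88 and 6.32 with withaferin A, and 7.30, 6.32, 6.54 and 6.62 with DMSO. No withaferin A array reached celastrol, although replicate 1 came close, and the difference of −2.74 ± 0.51, or 6.70-fold, had an adjusted p of 0.0713. Pdk4, the kinase that shuts pyruvate dehydrogenase during fasting, was 8.94, 9.08, 8.94 and 8.75 against 8.47, 7.89, 8.42 and 7.73, with DMSO at 7.63 to 8.07. Its compound groups did not overlap, while withaferin A and DMSO did, and the difference was −0.80 ± 0.15 (0.0722). Errfi1, a brake on the EGF receptor, had −0.57 ± 0.11 (0.0789), and Cebpd, a transcription factor of inflammation and fat cells, −0.56 ± 0.14 (0.117). In Cebpd, withaferin A replicate 1 at 6.37 lay within the celastrol values of 6.20 to 6.60. Sgk1 had a mean of 10.06 with celastrol and was 9.89, 9.18, 9.98 and 9.55 with withaferin A, with DMSO at 8.86 to 9.61, for −0.41 ± 0.17 (0.265).

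With withaferin A replicate 1 left out, 11 of the 27 members passed, all of them lower, and the list's median was −0.49. In that fit 0.375% of all tested genes passed. Lcn2 was then −3.38 ± 0.31 (adjusted p = 0.000762), Zbtb16 −1.35 ± 0.20 (0.0155), Fkbp5 −0.92 ± 0.13 (0.0154) and Pdk4 −0.92 ± 0.15 (0.0231), while Sgk1 was −0.49 ± 0.18 (0.227). With celastrol replicate 2 left out, 0 members passed, and Lcn2 and Zbtb16 were −2.51 ± 0.55 (0.194) and −1.03 ± 0.34 (0.299). The median of the list lay between −0.52 and −0.34 in every alternative fit tried. Why withaferin A replicate 1 lay at the celastrol level in these genes was not tested.

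**Figure D4:**
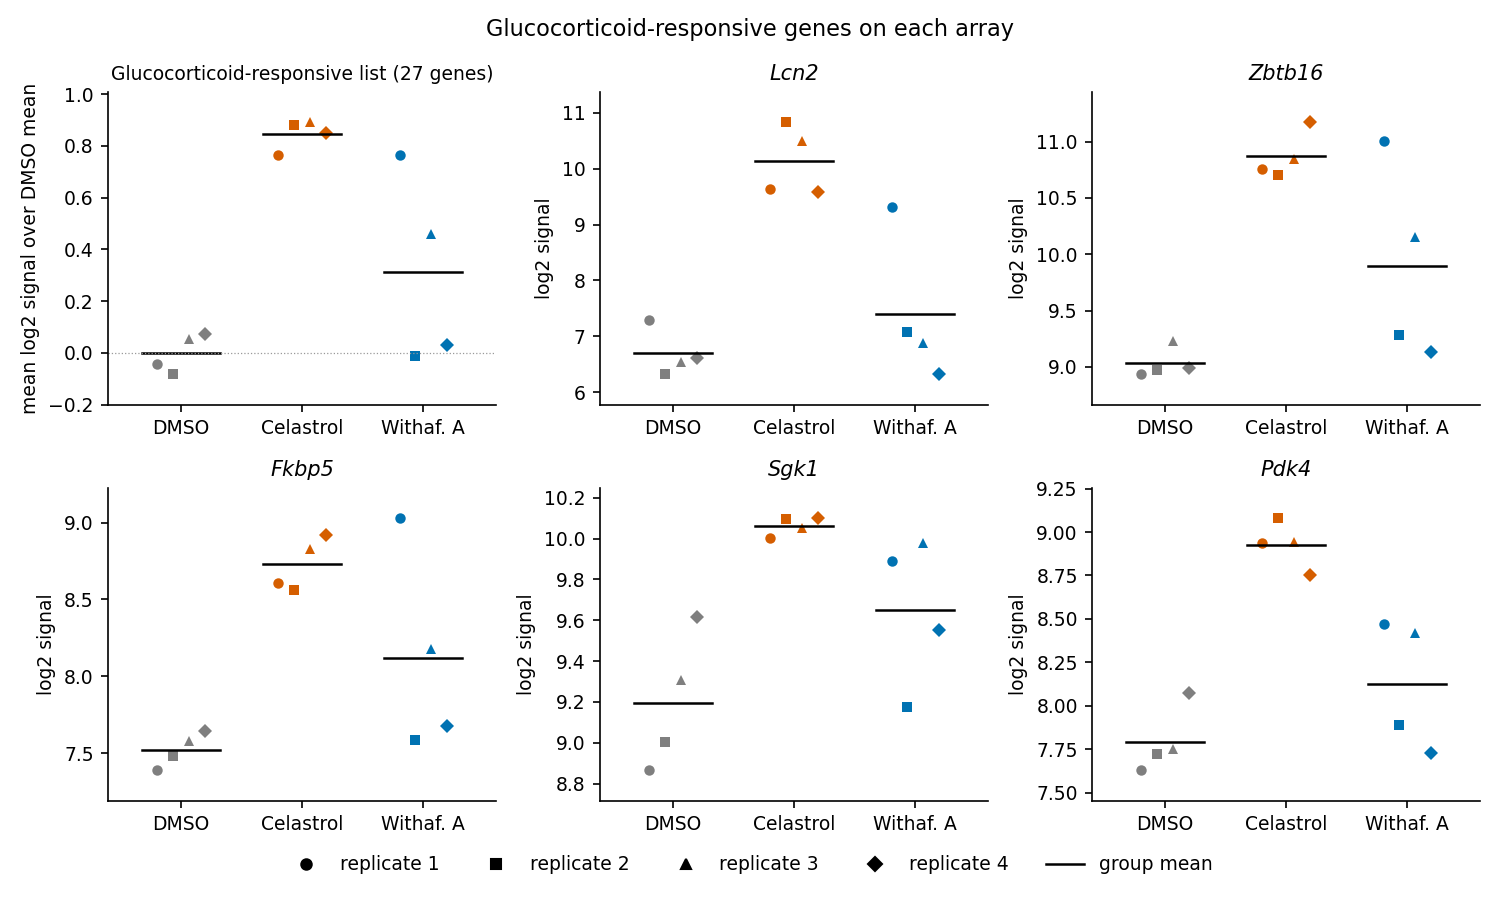
The first panel gives, for each array, the mean log2 signal of the 27 tested members of the glucocorticoid-responsive list above their DMSO mean, and the other panels the log2 signal of 5 members (vertical axes do not start at 0). Points are arrays, with shapes for replicates, and lines are group means. The celastrol arrays lie between 0.76 and 0.89 in the first panel, while the withaferin A arrays spread from −0.01 to 0.76.

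Promoters of 3 members are shown because they hold the core motif of the glucocorticoid receptor, AGAACA or TGTTCT on the other strand. They are all the members with a match, and none of them passed. RefSeq promoter windows (GRCm38.p6, 250 bases before the start to 50 after) were found for 20 of the 29 genes, in 29 windows, of which 5 (17.2%) held the motif. The share was 19.0% of all 32851 windows and 13% of those of tested genes. Of the 5 windows, 3 were of Sgk1. Counted by gene, 3 of the 20 (15%) held the motif, near the 15.3% of tested genes with a window. Capitals mark this motif. The windows are Sult1a1 at chr7:126676369-126676668 on the minus strand, Tsc22d3 at chrX:140600473-140600772 on the minus strand and 1 of 6 windows of Sgk1 at chr10:21993640-21993939 on the plus strand.
Sult1a1: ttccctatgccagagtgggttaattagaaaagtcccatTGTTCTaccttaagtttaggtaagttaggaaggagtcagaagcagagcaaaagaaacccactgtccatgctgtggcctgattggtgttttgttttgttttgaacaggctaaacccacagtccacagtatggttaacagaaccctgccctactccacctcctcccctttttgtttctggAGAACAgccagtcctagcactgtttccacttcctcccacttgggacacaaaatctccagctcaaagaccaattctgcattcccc
Tsc22d3: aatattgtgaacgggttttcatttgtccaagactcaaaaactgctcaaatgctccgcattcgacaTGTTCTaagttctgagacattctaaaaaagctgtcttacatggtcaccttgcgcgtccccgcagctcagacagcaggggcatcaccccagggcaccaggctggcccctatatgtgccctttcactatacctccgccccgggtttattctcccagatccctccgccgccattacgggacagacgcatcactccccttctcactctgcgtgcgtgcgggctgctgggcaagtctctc
Sgk1: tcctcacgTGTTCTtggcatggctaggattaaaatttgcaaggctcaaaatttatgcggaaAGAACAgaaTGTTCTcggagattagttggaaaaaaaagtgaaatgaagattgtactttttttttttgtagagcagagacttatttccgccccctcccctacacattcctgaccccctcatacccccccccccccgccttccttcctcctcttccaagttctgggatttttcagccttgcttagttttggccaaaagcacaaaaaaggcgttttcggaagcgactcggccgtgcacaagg
The Sgk1 window holds the motif and its reverse complement 3 bases apart, the palindrome that the receptor's dimer is known to bind, which 3 of 32851 windows (0.00913%) and 1 of 29 windows of the list held. Sult1a1, a sulfotransferase, had a difference of −0.69 ± 0.18 (adjusted p = 0.143), and Tsc22d3, the anti-inflammatory leucine zipper GILZ, −0.51 ± 0.16 (0.183). Receptor binding was not measured here.

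Targets of STAT3, through which leptin and IL-6 family cytokines act, had a difference below 0 in 21 of 29 tested members, against 45.1% of all tested genes. Of these 29, 1 passed as lower (Ch25h). At an unadjusted p under 0.05, 10 were lower (34.5%, against 7.46% of all genes) and 2 higher (6.90%, against 8.67%). The median was −0.07, between −0.15 and −0.04 in the alternative fits. Of its members of smallest p, Lcn2 and Cebpd are also in the glucocorticoid list, and Lcn2 and Lrg1 in the acute phase list. These lists are therefore not independent. The mean of the STAT3 list above DMSO was 0.31, 0.42, 0.32 and 0.29 on the celastrol arrays and 0.22, 0.03, 0.10 and 0.02 on the withaferin A arrays. Lrg1, a secreted leucine-rich glycoprotein, was 7.76, 7.76, 7.91 and 7.63 with celastrol, 7.22, 6.94, 6.66 and 6.40 with withaferin A, and 6.82, 6.16, 6.55 and 6.32 with DMSO. Its celastrol arrays lay above all others, with a difference of −0.96 ± 0.16 that did not pass (adjusted p = 0.0632). It was −1.10 ± 0.15 (0.00977) without withaferin A replicate 1 and −0.96 ± 0.18 (0.123) without celastrol replicate 2. Osmr, the oncostatin M receptor, had −0.76 ± 0.21 (0.159). Genes close to leptin signalling itself had smaller values. Socs3, the feedback inhibitor of the leptin receptor, was −0.20 ± 0.11 (0.386), with 7.75, 7.86, 7.80 and 7.60 against 7.59, 7.62, 7.37 and 7.62. A dimmer probe set of Socs3 gave −0.01 ± 0.08. The receptor gene Lepr was −0.16 ± 0.09 (0.394). Stat3 itself was 0.00 ± 0.05 and Ptpn1, a phosphatase that restrains leptin signalling, −0.20 ± 0.07 (0.217).

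Acute phase genes code for plasma proteins that the liver and, in the brain, glia release in inflammation. Of 20 in the list 12 were tested, 0 passed, and 6 were lower (50%, against 7.46% of all genes) and 0 higher (against 8.67%) at an unadjusted p under 0.05. The median was −0.30, and it was −0.10 with pituitary and thalamus markers as covariates. Serpina3n, a protease inhibitor of reactive astrocytes, had −0.38 ± 0.10 (adjusted p = 0.141), and Lbp, the lipopolysaccharide-binding protein, −0.23 ± 0.06 (0.126). The mean of the list above DMSO was 0.55, 0.79, 0.31 and 0.22 on the celastrol arrays and 0.23, −0.03, −0.15 and −0.22 on the withaferin A arrays. Among DMSO arrays it was 0.72 on replicate 1 and −0.26 to −0.23 on the others. That array was high in genes of fibrinogen beta (Fgb, 9.87 against 6.13 to 6.45) and haptoglobin (Hp, 8.11 against 6.07 to 6.47).

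In lists of fasting and fat use, of oxysterols and of prostaglandins, the only genes that passed were Txnip and Ch25h. In the fasting list, 27 were tested, and 5 were lower (18.5%, against 7.46% of all genes) and 0 higher (against 8.67%) at an unadjusted p under 0.05, with a median of −0.04, between −0.08 and −0.01 in the alternative fits. Of these, Pdk4 (above), Angptl4 (−0.35 ± 0.10, adjusted p = 0.160), an inhibitor of lipoprotein lipase, and Plin4 (−1.12 ± 0.33, 0.178), a lipid droplet coat protein, are also glucocorticoid-responsive. Plin4 was 8.91, 6.81, 8.44 and 7.31 with withaferin A, against 8.84 to 9.17 with celastrol and 7.25 to 7.53 with DMSO, so its withaferin A arrays ran from below the DMSO range into the celastrol range. Enzymes of fat oxidation such as Cpt1a (0.02 ± 0.05) and Acadm (0.01 ± 0.06) showed values near 0.

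In the oxysterol list of 17 tested genes, Ch25h was lower (5.88%, against 7.46% of all genes) and 5 were higher (29.4%, against 8.67%) at an unadjusted p under 0.05, with a median of 0.05. Srebf1, the LXR-regulated driver of fatty acid synthesis, was 9.17, 9.25, 9.27 and 9.24 with withaferin A and 9.03, 9.01, 9.02 and 9.02 with celastrol, with DMSO at 9.14 to 9.21. Its compound groups did not overlap, and the difference was 0.21 ± 0.05 (adjusted p = 0.0882). Gpr183, a receptor for oxysterols on immune cells, had 0.22 ± 0.07 (0.207), and Nr1h3, which codes for LXR alpha, 0.31 ± 0.12 (0.259). In the prostaglandin list, 3 of 16 were lower (18.8%, against 7.46% of all genes) and 0 higher (against 8.67%) at an unadjusted p under 0.05, and 0 passed. The median of that list lay on the other side, at 0.06. Ptgs2, the inducible cyclooxygenase, was 7.24, 7.88, 7.58 and 7.35 with celastrol, 7.06, 6.78, 6.91 and 6.42 with withaferin A and 6.39 to 6.82 with DMSO, for −0.72 ± 0.15 (0.0882). Ptgds, the prostaglandin D synthase of the meninges and oligodendrocytes, had −0.37 ± 0.09 (0.124).

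In lists of energy production, translation and protein folding, 0 genes passed and the medians were small and below 0. These medians moved up with quantile normalization, which gives all arrays the same spread of signals. The median over all genes was 0.03 with no filter on dim genes and −0.01 with the filter at the 50th percentile. Under the latter filter, 1067 of 9969 genes were lower and 647 higher at an unadjusted p under 0.05. Over all 14953 tested genes the counts were 1116 and 1297, so the shares of all genes given below depend on the filter. The part of the arrays' spread in these lists was not tested. Of 72 tested genes of oxidative phosphorylation, 14 were lower (19.4%, against 7.46% of all genes) and 0 higher (against 8.67%) at an unadjusted p under 0.05. In 11 (15.3%, against 5.35% of all genes) the withaferin A arrays lay wholly below the celastrol arrays, and the median was −0.05. The mean of the list lay between −0.12 and −0.08 of the DMSO mean on the withaferin A arrays, between −0.08 and −0.01 on the celastrol arrays and between −0.04 and 0.05 with DMSO. Ndufv2, a subunit of complex I, was 10.97, 10.94, 10.90 and 10.81 against 11.07, 11.21, 11.09 and 11.08, for −0.21 ± 0.07 (adjusted p = 0.189). DMSO lay nearer celastrol in this gene, at 11.03 to 11.31, as it did in the ATP synthase gene Atp5h (−0.22 ± 0.07, 0.184) and in Ndufb8 and cytochrome c (Cycs). The median of the list lay between −0.088 with centred arrays and −0.0033 with quantile normalization.

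Of 56 cytosolic ribosomal protein genes, 13 were lower (23.2%, against 7.46% of all genes) and 1 higher (1.79%, against 8.67%) at an unadjusted p under 0.05. The median was −0.07, between −0.100 with centred arrays and −0.015 with quantile normalization. Rps15a was 8.79, 8.38, 8.75 and 8.41 with withaferin A and 9.18, 9.14, 8.92 and 8.94 with celastrol, for −0.46 ± 0.11 (adjusted p = 0.114). Rpl24, Rps12 and Rpl7a had −0.25 ± 0.07, −0.21 ± 0.06 and −0.19 ± 0.06. Ribosomal genes have near-identical pseudogenes, so a probe set may read several, and other probe sets named for Rps12 gave values between −0.30 and −0.04. In the heat shock list, where both compounds are known to act in cultured cells through HSF1 and HSP90, 7 of 23 genes were lower (30.4%, against 7.46% of all genes) and 0 higher (against 8.67%) at an unadjusted p under 0.05. The median was −0.11, between −0.14 with centred arrays and −0.05 with quantile normalization. Hspe1, the mitochondrial co-chaperonin, was 10.53, 10.49, 10.58 and 10.35 against 10.74, 10.89, 10.74 and 10.84, for −0.31 ± 0.07 (0.0949), and Chordc1, an HSP90 partner, had −0.45 ± 0.10 (0.112). Hspa1a, an inducible HSP70, was 8.32, 8.15, 8.13 and 8.23 against 8.52, 8.33, 8.31 and 8.54, for −0.22 ± 0.07 (0.179). The proteasome list had 0 of 31 members at an unadjusted p under 0.05 in either direction, and Hspa5, the chaperone BiP of the endoplasmic reticulum, was −0.07 ± 0.05 (0.495).

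Immediate early genes, which neurons switch on with activity, were higher with withaferin A than with celastrol in 8 of 27 members at an unadjusted p under 0.05 and lower in 0, against 8.67% and 7.46% of all tested genes. None passed, and the median was 0.11, between 0.03 and 0.13 in the alternative fits. Arc, which acts on synaptic AMPA receptors, was 7.89, 7.85, 7.79 and 8.04 with withaferin A and 7.39, 7.54, 7.59 and 7.59 with celastrol, with a DMSO mean of 7.81. Its difference was 0.37 ± 0.08 (adjusted p = 0.0932). Npas4, an activity-dependent transcription factor, was 7.08, 7.15, 7.08 and 7.15 against 6.88, 6.72, 6.63 and 6.93, with DMSO at 7.15 to 7.50, for 0.32 ± 0.08 (0.140). Nr4a3 had 0.33 ± 0.12 (0.213), Nptx2 0.21 ± 0.07 (0.202) and Fos 0.44 ± 0.20 (0.304). In Arc and Npas4 the compound groups did not overlap and DMSO lay nearer withaferin A.

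The peptides and receptors of feeding circuits differed little. Of 41 tested, 0 passed, and 3 were lower (7.32%, near the 7.46% of all genes) and 6 higher (14.6%, against 8.67%) at an unadjusted p under 0.05. The median was 0.02, with the opposite sign in 3 alternative fits. Pomc, from which neurons make the anorexigenic melanocortin alpha-MSH, was 8.28, 9.25, 9.34 and 8.36 with celastrol, 7.88, 8.25, 8.84 and 7.85 with withaferin A and 8.07 to 8.25 with DMSO. Both compound groups spread widely and overlapped, for −0.60 ± 0.25 (adjusted p = 0.262), or −0.46 ± 0.26 (0.491) without celastrol replicate 2. Since Pomc is also a pituitary gene, that array's pituitary signal is to be read beside it. Npy (−0.02 ± 0.09, 95% interval −0.22 to 0.17) and Cartpt (0.00 ± 0.09, −0.19 to 0.19) had values near 0 whose sign changed between fits, and Agrp was not analysed here.

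Oxt, which codes for oxytocin, was 11.33, 11.31, 11.42 and 11.37 with withaferin A, 11.34, 11.11, 10.99 and 11.12 with celastrol and 11.51 to 11.56 with DMSO, so that withaferin A lay between the other groups except for the first celastrol array. The difference was 0.22 ± 0.07 (adjusted p = 0.178). Among receptors, Npy1r had −0.29 ± 0.08 (0.160) and the orexin receptor Hcrtr1 0.19 ± 0.07 (0.220). The neurotrophin gene Bdnf had 0.22 ± 0.09 (0.252). Markers of hypothalamic regions were higher in 4 of 27 (14.8%, against 8.67% of all genes) at an unadjusted p under 0.05 and lower in 0 (against 7.46%), with 0 passing and a median of 0.10. These were the developmental factors Fezf2 (0.26 ± 0.08, 0.178), Lhx6 (0.24 ± 0.08, 0.204), Nkx2-2 (0.20 ± 0.07, 0.207) and Otp (0.21 ± 0.08, 0.240). Among clock genes, Dbp, an output gene of the circadian clock, was 9.35, 9.55, 9.59 and 9.77 with withaferin A, 9.22 to 9.29 with celastrol and 9.86 to 9.99 with DMSO. Its 3 groups did not overlap, the difference was 0.30 ± 0.07 (0.124), and it was 0.38 ± 0.06 (0.0277) without withaferin A replicate 1 and 0.31 ± 0.08 (0.248) without celastrol replicate 2.

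Cell type markers gave 0 genes that passed, and within a list single genes lay on both sides. Of 19 oligodendrocyte markers, 5 were higher (26.3%, against 8.67% of all genes) and 2 lower (10.5%, against 7.46%) at an unadjusted p under 0.05. The median was 0.06, and it was 0.0045 without withaferin A replicate 2. Opalin, a myelin protein, was 7.74, 7.59, 7.48 and 7.40 with celastrol, 7.60, 8.53, 7.75 and 8.46 with withaferin A and 8.45 to 8.73 with DMSO. Withaferin A replicates 2 and 4 lay in or near the DMSO range and replicates 1 and 3 near celastrol, and the difference was 0.53 ± 0.18 (adjusted p = 0.204). Gpr37 (0.37 ± 0.09, 0.113), Nkx6-2 (0.31 ± 0.10, 0.179) and Mog (0.22 ± 0.07, 0.189) were on the higher side and Mobp (−0.29 ± 0.08, 0.159) on the lower. Gpr37 was 0.47 ± 0.06 (0.00812) without withaferin A replicate 1 and 0.37 ± 0.10 (0.247) without celastrol replicate 2.

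Among 20 microglia markers, 4 were higher (20.0%, against 8.67% of all genes) and 4 lower (20.0%, against 7.46%) at an unadjusted p under 0.05. The median was 0.00, with the opposite sign in 8 alternative fits. Cd180, a toll-like receptor homologue, was 6.49, 7.27, 6.83 and 6.86 with withaferin A, 6.26, 6.47, 6.09 and 5.92 with celastrol and 6.84 to 7.31 with DMSO, for 0.68 ± 0.16 (adjusted p = 0.111). It was 0.80 ± 0.15 (0.0434) without withaferin A replicate 1 and 0.78 ± 0.16 (0.183) without celastrol replicate 2. P2ry13, a purine receptor of resting microglia, had 0.44 ± 0.12 (0.141). The complement gene C1qb and the protease gene Ctss had −0.31 ± 0.09 (0.178) and −0.19 ± 0.05 (0.160). The astrocyte gene Gfap was −0.01 ± 0.12 (0.977). Medians of the neuronal, astrocyte, endothelial and pericyte lists lay between −0.01 and 0.01, and each changed sign in some alternative fits.

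Markers of adjoining tissue were compared because dissection can vary. The 8 tested pituitary markers averaged 1.62 above DMSO on celastrol replicate 2, while the other 7 arrays of the compounds lay between 0.08 and 0.34, and their median difference was −0.05, with 1 lower at an unadjusted p under 0.05 (12.5%, against 7.46% of all genes). With the filter at the 50th percentile that median was −1.25, which is the difference of the single gene Cga. Its arrays overlapped between the compounds (−1.25 ± 0.66, adjusted p = 0.366 over all tested genes), so this value does not describe the whole list. Thalamus markers ranged from −0.11 to 0.75 on celastrol arrays and from −0.25 to 0.60 on withaferin A arrays, with a median difference of −0.02. With both scores as covariates, the median of the glucocorticoid list was −0.42 and 0 of its members passed. The part of pituitary and thalamus tissue in single genes was not tested further.

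**Figure D5:**
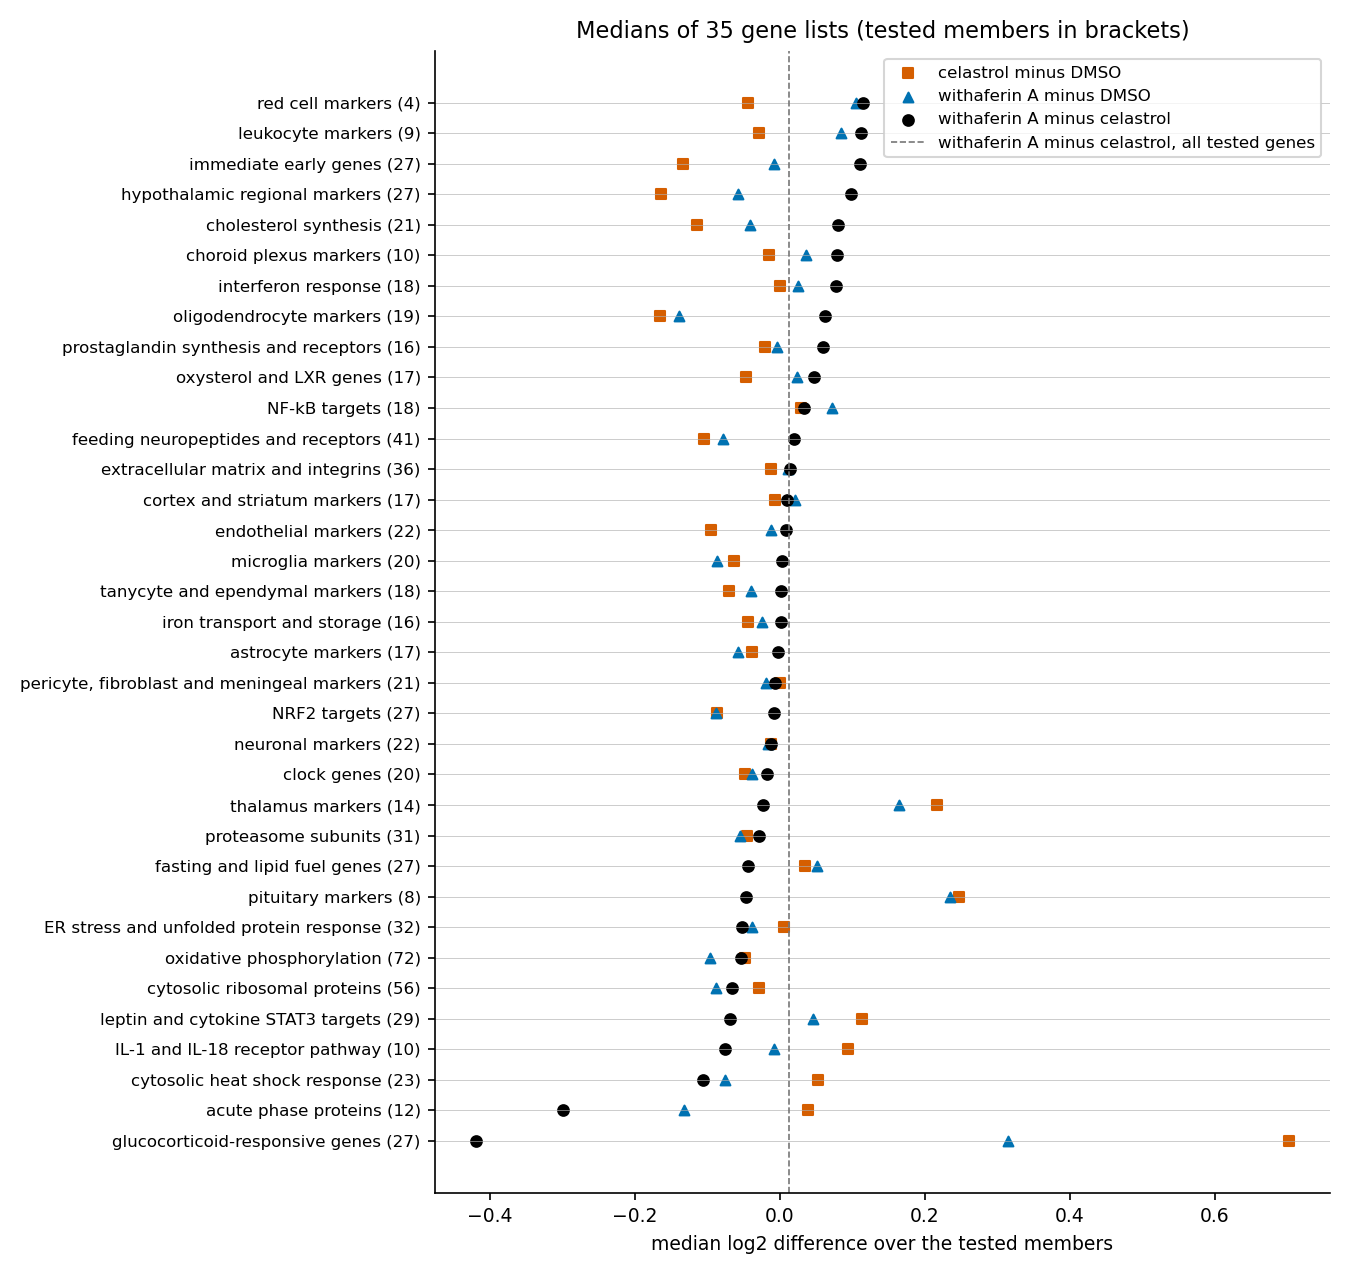
Median log2 difference over the tested members (horizontal axis) for each of 35 gene lists (vertical axis, number of tested members in brackets), for withaferin A minus celastrol (black circles), celastrol minus DMSO (orange squares) and withaferin A minus DMSO (blue triangles). The dashed line is the median of 0.01 over all tested genes, and the glucocorticoid list at −0.42 and the acute phase list at −0.30 lie farthest to its left, while the highest, red cell markers, lies at 0.11.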

How the data were processed

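Hypothalamus RNA of 12 mice was read on one-colour Affymetrix arrays. The deposited values are log2 signals that the authors made with RMA, per the submitters' processing notes, and the array software version is not given in the sources used here. Of 35556 probe sets, 21789 carry 1 symbol, 1621 several and 12146 none. For 999 genes with several probe sets the one of highest mean was used. A mean per group was estimated from the 12 arrays together by limma 3.58.1 in R 4.3.3, and p-values were Benjamini-Hochberg adjusted over 14953 genes. Residual degrees of freedom were 9 and prior degrees 4.44. The procedure was tested on simulated data. Plots used matplotlib 3.10.9. Named genes were those of smallest p, at most 10 in each direction, 18 fixed genes of which 16 were tested, and at most 4 members of each described list. Outside this rule are relatives of the genes that passed, neighbours of Ide, genes whose promoters are shown and some further list members. The last are Osmr, Stat3, Ptpn1, Fos, Cpt1a, Acadm, Fgb and Hp. The comparison, the members and the gene lists were chosen with earlier results of these data known. Replicate numbers do not pair mice. The number of arrays limits the precision. Each p-value sets a difference against 1 spread between mice, pooled over the 3 groups. The groups can spread unequally, as in Zbtb16, with an SD of 0.13 for DMSO, 0.21 for celastrol and 0.87 for withaferin A. The alternatives were other filters, normalizations, variance models, covariates and samples left out.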

Additional observations from a re-analysis of the deposited data

Results flagged for a closer look

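In 16 of 342 sets of 4 arrays, 1 array lay far from the other 3, by Dixon's ratio of gap to range at the 95% level. Chance gives this in about 1 of 20 sets. Among single genes, withaferin A replicate 3 was low in Ide at 9.469 (others 9.875 to 9.893), in Tysnd1 at 7.827 (8.02 to 8.051) and in Socs3 at 7.367 (7.587 to 7.625). Celastrol replicate 2 was high in Ndufv2 at 11.21 (11.07 to 11.09) and in Rpl7a at 11.34 (11.22 to 11.23). Withaferin A replicate 2 was low in Cycs at 12.01 (12.15 to 12.17) and replicate 4 low in C1qb at 10.19 (10.33 to 10.35). Celastrol replicate 3 was low in Lhx6 at 7.048 (7.271 to 7.309), celastrol replicate 1 high in Otp at 8.988 (8.813 to 8.838) and DMSO replicate 3 high in Prom1 at 6.966 (6.792 to 6.822).

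Among list means above DMSO, celastrol replicate 2 was high in pituitary markers at 1.616 (others 0.275 to 0.3336) and in pericyte, fibroblast and meningeal markers at 0.1215 (−0.0131 to −0.0103). DMSO replicate 1 was high in acute phase proteins at 0.7165 (−0.2603 to −0.2264). DMSO replicate 2 was low in endothelial markers at −0.027 (0.0073 to 0.0105), withaferin A replicate 4 low in ER stress genes at −0.0488 (−0.0269 to −0.0241) and celastrol replicate 4 low in extracellular matrix genes at −0.0275 (0.0154 to 0.0189).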

How the results depend on the processing

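The count of 7 genes that passed was 11 with no filter on dim genes, 13 with a filter at the 50th percentile (4 of the 7 among them), 12 with arrays centred on their median, 29 with an intensity trend and robust prior, 19 with array weights and 77 at an adjusted p under 0.10. It was 0 in limma fits to the 8 compound arrays (1150 lower and 1213 higher at an unadjusted p under 0.05), with pituitary and thalamus scores as covariates (706 and 883) and over every probe set (2326 and 2606). Leaving out 1 array gave 0 to 56 genes, and leaving out both celastrol replicate 2 and withaferin A replicate 1, chosen after seeing the data, gave 17. With the replicate block the count was 7, with 4 of the 7 among them. Same-numbered celastrol and withaferin A arrays had correlations between −0.229 and 0.050, so the numbers are not read as pairs. Centring moved the median of all genes to −0.02, with 11 lower and 1 higher.

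Of 1870 values of 79 genes under at most 24 alternatives each, 1718 kept direction and side of the threshold, 79 newly passed, 57 no longer passed and 16 changed sign, none of them among the 7 genes. The sign changed only for Npy, Cartpt and Gfap. The Npy log2 difference was 0.01571 with quantile normalization, 0.04308 without celastrol replicate 1 and 0.03706 without withaferin A replicate 4. The Cartpt log2 difference was −0.03396 with centring, −0.01526 with covariates, and −0.009711, −0.07465 and −0.0601 without celastrol replicate 1, celastrol replicate 3 and withaferin A replicate 2. The Gfap log2 difference was 0.02029 with quantile normalization, 0.002863 with array weights, 0.02692 with covariates, 0.04188, 0.06486, 0.02158 and 0.07332 without celastrol replicates 2 and 4 and withaferin A replicates 2 and 4, and 0.02321 without both arrays named above. Over the single arrays left out, the difference ranged from −0.07023 to 0.04308 for Npy, from −0.07465 to 0.06923 for Cartpt and from −0.1041 to 0.07332 for Gfap. The cause was not tested.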

Other observations

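The genes in this section were chosen after their values were seen. Scgb3a1, which codes for a small secretoglobin, had the next largest difference after Lcn2, with means of 8.91 ± 0.89 (SD, n = 4) for celastrol, 7.07 ± 0.31 for withaferin A and 6.74 ± 0.14 for DMSO. Its difference of −1.84 ± 0.32 did not pass (adjusted p = 0.0642), and it was −1.97 ± 0.35 (0.0347) without withaferin A replicate 1 and −1.53 ± 0.28 (0.123) without celastrol replicate 2. Igfbp7, a secreted binding protein of vessels, had −0.73 ± 0.13 (0.0647) with the arrays of the groups apart. The interferon-induced membrane protein genes Ifitm2 and Ifitm3 had −0.59 ± 0.12 (0.0823) and −0.67 ± 0.17 (0.135), while the interferon response list had 0 of 18 lower (against 7.46% of all genes) and 3 higher (16.7%, against 8.67%) at an unadjusted p under 0.05. The 3 were Rsad2 (0.39 ± 0.14), Oasl2 (0.23 ± 0.09) and Ifih1 (0.19 ± 0.09).

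In the zinc finger genes Zfp931 and Zfp971, DMSO lay nearer celastrol. Zfp931 had means of 6.58 for DMSO, 6.85 for celastrol and 5.75 for withaferin A, a difference of −1.10 ± 0.22 (adjusted p = 0.0823), and Zfp971 had −0.41 ± 0.09 (0.0882). The pituitary hormone genes Gh and Cga had −1.46 ± 0.62 (0.274) and −1.25 ± 0.66 (0.366) with overlapping arrays. Without celastrol replicate 2, the array of high pituitary signal, they were −0.59 ± 0.24 (0.374) and −0.81 ± 0.66 (0.640).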
